A study of Mus musculus with 6 samples.

Results

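Mitochondrial ribosomal proteins were examined in heads of mouse embryos, comparing embryos that lack Arid3b with wild type embryos. The genes were taken by name: every non-control probe whose RefSeq symbol begins with Mrpl (large subunit) or Mrps (small subunit) and a digit. This gave 78 genes and 99 probes, of which 77 genes passed the filter on dim probes (48 of 49 large subunit genes and all 29 small subunit genes), out of 14906 genes tested in all. Mrpl21 was the gene left out, because its probe was not well above background on any of the 6 arrays. All 77 were well above background on all 6 arrays.

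Total RNA came from heads dissected at embryonic day 9.5 together with the first branchial arch, and 4 embryos were pooled for each sample. There were 3 wild type samples and 3 samples from Arid3b-null embryos, each on 1 one-colour Agilent array. The labels give no strain, sex or litter for either group and do not say which part of Arid3b was deleted. Whether the pools of a group stem from different litters is not stated, and p-values therefore reflect only how much these pools vary. Arid3b codes for a transcription factor of the ARID family, and its brightest probe gave 1.98, 2.26 and 3.09 on the wild type arrays and 1.27, 1.06 and 1.44 on the null arrays, a difference of -1.19 ± 0.29 (limma, adjusted p = 0.0265). It was no longer called on leaving out null array 1, 2 or 3 (0.0890, 0.0858 and 0.0697) or without the filter on dim probes (0.0599), and where this probe lies relative to the deletion is not given.

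Mitochondria carry their own ribosome, which translates the few proteins encoded in mitochondrial DNA, all of them subunits of the respiratory chain and the ATP synthase. Its RNA comes from the mitochondrial genome, but every protein is encoded in the nucleus, made in the cytosol and imported. Some of its proteins descend from the bacterial ribosome and others were added in the mitochondrial lineage. The RNA levels of nuclear genes measured here say nothing about ribosome assembly or protein amount.

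Values are log2 signals relative to the 75th percentile of the same array, with n = 3 arrays per group, and differences are null minus wild type with the standard error from limma. Adjusted p is Benjamini-Hochberg over all 14906 genes, and a gene is called under 0.05. In bulk tissue, fewer cells of a type and less RNA per cell cannot be told apart.

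Mitochondrial ribosomal protein genes were lower in null heads or did not pass the test. In limma, 27 of 77 fell and 0 rose at an adjusted p under 0.05, against 11.2% of all genes lower and 12.3% higher (23.5% called in all). At an unadjusted p under 0.05, 42 were lower and 0 were higher, beside 2837 lower and 2768 higher of all 14906 genes. The share of members called lower was 35.1%. The difference was below 0 in 70 of the 77 genes, where 53.2% of all genes tested were below 0. The median difference was -0.49, against -0.04 for all genes, and the middle 50% of members ran from -0.72 to -0.21. All 3 null arrays lay below all 3 wild type arrays in 43 members and above them in 1, against 21.8% and 20.6% of all genes, while the groups overlapped in 33.

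**Figure D1:**
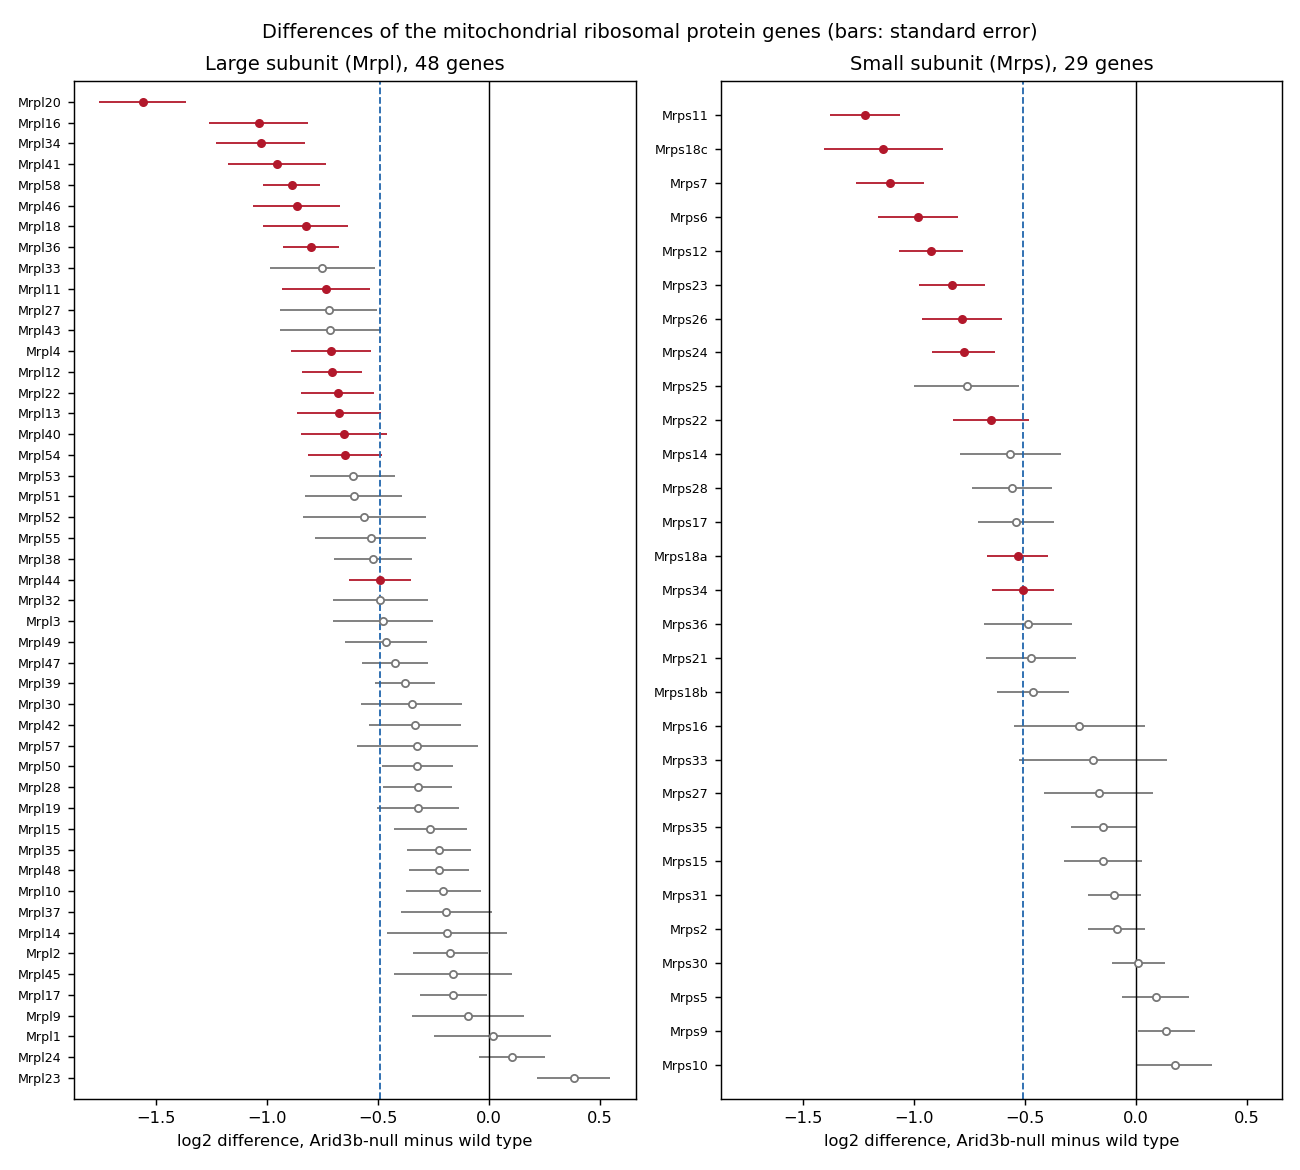
Log2 difference between Arid3b-null and wild type heads for each of the 48 large subunit genes (left) and 29 small subunit genes (right), with the standard error as a bar. Filled points passed an adjusted p of 0.05, open points did not, and the dashed line is the median of each subunit (-0.49 and -0.51). Mrpl20 lies lowest at -1.56 and Mrpl23 highest at 0.38.

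Of 48 large subunit genes, 16 fell (33.3%), with a median of -0.49 and a range from -1.56 to 0.38. Of 29 small subunit genes, 11 fell (37.9%), with a median of -0.51 and a range from -1.22 to 0.18. The difference between the subunits was not tested. The names do not fully follow the assembled particle: Mrps30 and Mrps18a sit in the large subunit of the mammalian structure, and Mrps36 is not counted among its proteins. Grouped by that structure, 17 of 50 large subunit genes and 10 of 26 small subunit genes fell, with medians of -0.49 and -0.53. Genes whose proteins have a bacterial counterpart (16 of 45 lower, median -0.49) and genes particular to mitochondria (11 of 31 lower, median -0.51) were counted likewise. Mrps18a and Mrps18b were counted as particular to mitochondria, although they are paralogs of Mrps18c related to bacterial S18. All 6 members that fell by at least 2-fold have a bacterial counterpart. Among members particular to mitochondria the lowest difference was -0.96, in Mrpl41, just short of that cut.

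The arrays differed among themselves in these genes. Over all members, the median deviation from the wild type mean was 0.21, 0.07 and -0.29 on wild type arrays 1, 2 and 3, and -0.56, -0.39 and -0.56 on null arrays 1, 2 and 3. Wild type array 1 was the highest of its group in 62 of 77 members and wild type array 3 the lowest in 68. The cytosolic ribosomal protein genes lay in the same order on the wild type arrays (0.25, 0.03 and -0.27), and lay at 0.01, 0.26 and -0.15 on null arrays. The median over all genes stayed between -0.08 and 0.04 on every array. Median differences of the members within slides 1, 2 and 3, with 1 array of each genotype and the same replicate number per slide, were -0.80, -0.47 and -0.26, and 52 members were below 0 on all 3 slides.

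**Figure D2:**
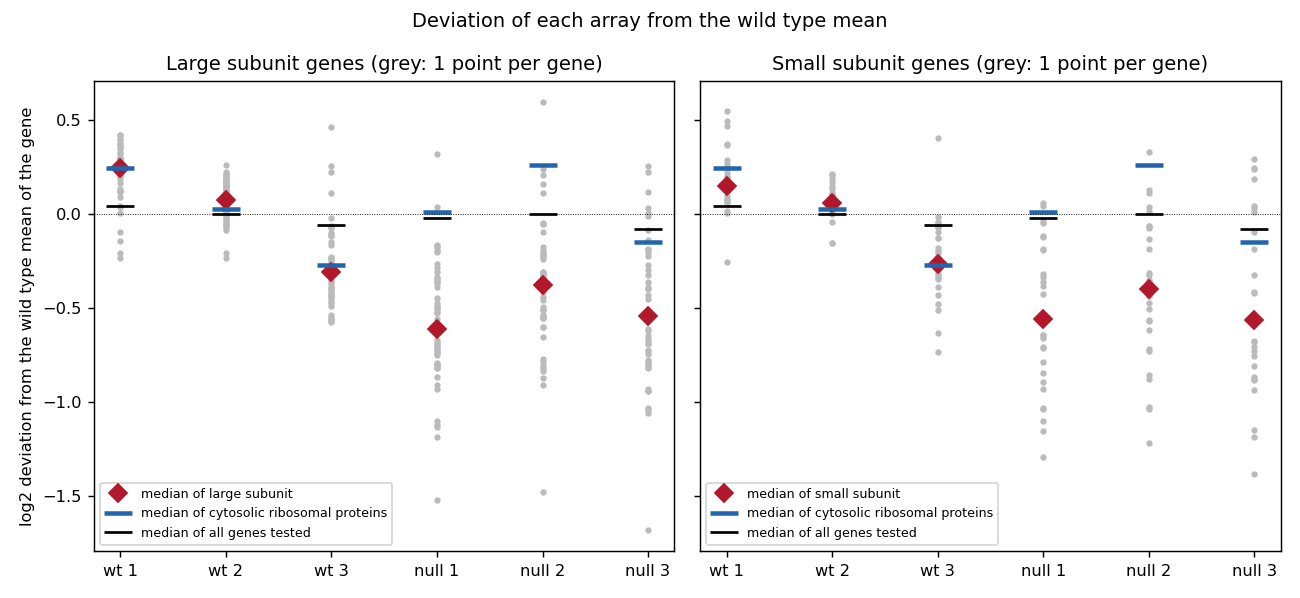
Deviation of each array from the wild type mean of the gene (log2), for large subunit genes (left) and small subunit genes (right). Grey points are genes, red diamonds the median of the subunit, blue lines the median of 73 cytosolic ribosomal protein genes and black lines the median of all genes tested. Subunit medians run from -0.31 to 0.25 on wild type arrays and from -0.61 to -0.38 on null arrays.

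The count depended strongly on single arrays. Without wild type replicate 1, 2 or 3, 11, 11 and 50 members were called lower, beside 6.0%, 6.3% and 18% of all genes. Without null replicate 1, 2 or 3 it was 6, 14 and 11, beside 4.1%, 5.4% and 5.3%. With the slide as a block, 27 were lower, of which 24 were among the 27 called without it, beside 11.8% of all genes lower and 12.9% higher. Mrpl13 (adjusted p = 0.0543), Mrpl44 (0.0572) and Mrps18a (0.0550) were called only without the block, and Mrps25 (0.0350), Mrpl33 (0.0444) and Mrpl43 (0.0485) only with it. In each of these fits 0 members were called higher.

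The large subunit gene with the lowest p was Mrpl20, whose protein is the counterpart of bacterial L20, an early binder of the large ribosomal RNA. Its signal was 4.82, 4.66 and 4.16 on the wild type arrays and 3.03, 3.07 and 2.87 on the null arrays. The difference was -1.56 ± 0.20, so null heads had 33.9% of the wild type signal (adjusted p = 0.00316), the largest fall among the 77. Mrpl58 encodes the former Ict1, a peptidyl-tRNA hydrolase that frees stalled ribosomes and is built into the large subunit. It read 4.35, 4.22 and 4.12 on the wild type arrays and 3.32, 3.41 and 3.29 on the null arrays. These groups lay well apart, with a difference of -0.89 ± 0.13 (adjusted p = 0.00476). Mrpl36, the counterpart of the small bacterial protein L36, read 2.86, 2.73 and 2.62 on the wild type arrays and 1.91, 1.96 and 1.92 on the null arrays, a difference of -0.80 ± 0.13 (adjusted p = 0.00637). In Mrpl36, as in Mrpl58, no null array came near a wild type array. Mrpl12, the counterpart of the L7/L12 stalk protein that recruits translation factors, read 4.48, 4.50 and 4.46 on the wild type arrays and 3.68, 3.67 and 3.96 on the null arrays, and its difference was -0.71 ± 0.14 (adjusted p = 0.0120).

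Wild type array 3 was the lowest of its group in all 8 large subunit genes with the smallest p, the 4 above and the 4 that follow. Mrpl34 read 3.46, 3.34 and 2.78 on the wild type arrays and 2.06, 2.28 and 2.15 on the null arrays, a difference of -1.03 ± 0.20 (adjusted p = 0.0130). Mrpl16, whose bacterial counterpart helps to form the site where the tRNA acceptor end binds, read 2.31, 2.18 and 1.55 on the wild type arrays and 0.83, 1.14 and 0.96 on the null arrays, a difference of -1.04 ± 0.22 (adjusted p = 0.0176). In both, the lowest wild type array still lay above the highest null array. Mrpl46, a protein of the central protuberance, read 1.11, 0.93 and 0.56 on the wild type arrays and -0.26, 0.08 and 0.18 on the null arrays, a difference of -0.87 ± 0.20 (adjusted p = 0.0210). Mrpl41, which has no bacterial counterpart, read 3.28, 2.97 and 2.46 on the wild type arrays and 1.80, 2.07 and 1.96 on the null arrays, a difference of -0.96 ± 0.22 (adjusted p = 0.0225). A second probe of Mrpl41 gave -0.39 ± 0.17 and was not called. The calls of Mrpl20, Mrpl58 and Mrpl36 stood in every fit run in which the gene had a value. The call of Mrpl12 did not stand on leaving out null array 1 or 2 (adjusted p, in that order, 0.0650 and 0.0539). The call of Mrpl34 did not stand on leaving out null array 1 or 3 (adjusted p, in that order, 0.0622 and 0.0521). The call of Mrpl16 did not stand on leaving out wild type array 1 or 2, or null array 1 or 3 (adjusted p, in that order, 0.0529, 0.0554, 0.0761 and 0.0659). The call of Mrpl46 did not stand on leaving out wild type array 1 or 2, or null array 1 or 2 (adjusted p, in that order, 0.0633, 0.0635, 0.0863 and 0.0591). The call of Mrpl41 did not stand on leaving out wild type array 1 or 2, or null array 1, 2 or 3 (adjusted p, in that order, 0.0559, 0.0644, 0.0931, 0.0574 and 0.0756). Mrpl41 (0.0524) was not called without the filter on dim probes. Mrpl12 (0.0539) was not called after quantile normalization. Mrpl41 (0.152) was not called on the dimmest kept probe.

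**Figure D3:**
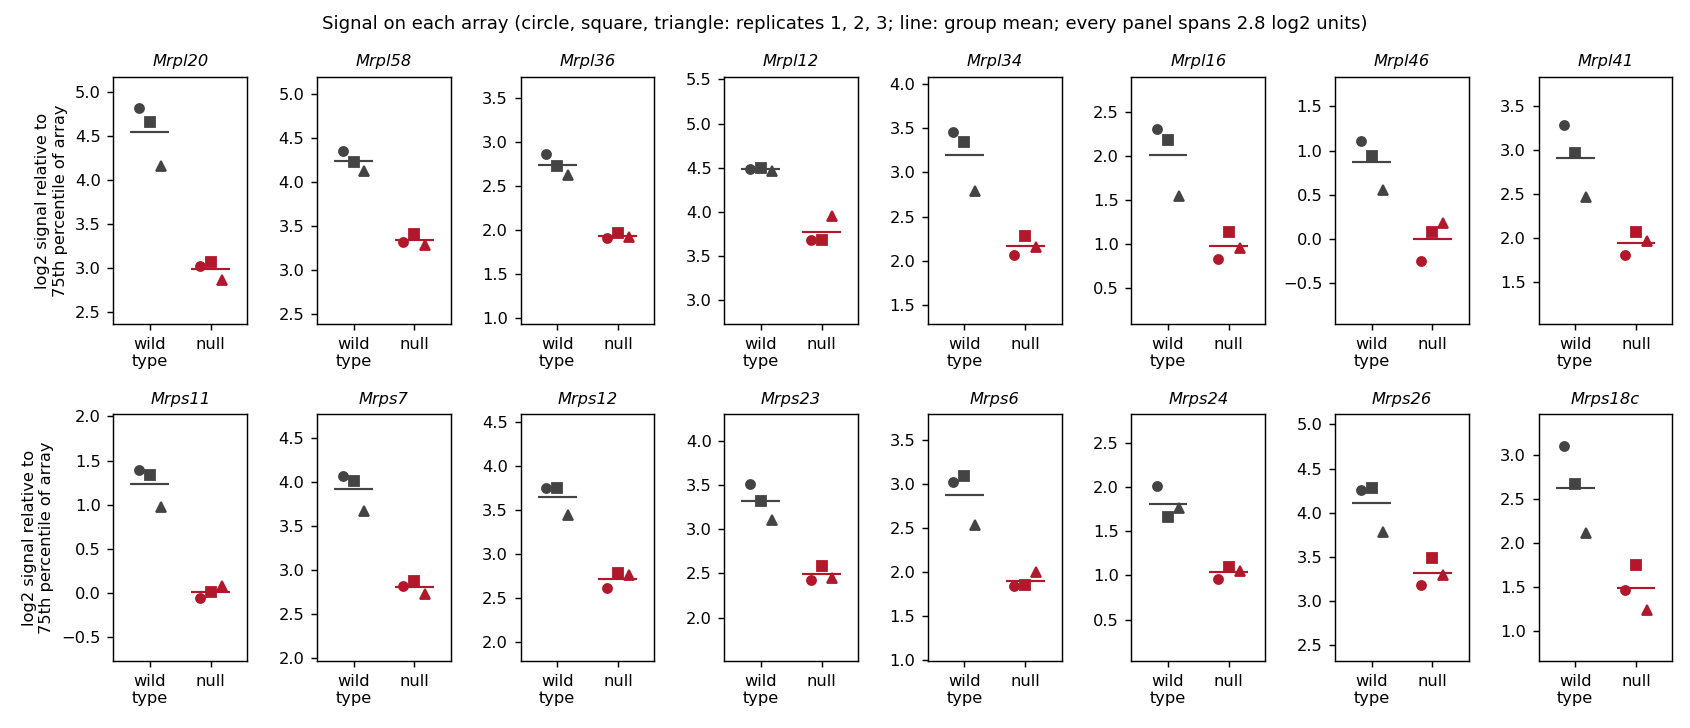
Signal of the 8 large subunit genes (top) and 8 small subunit genes (bottom) with the smallest p among those called, as log2 relative to the 75th percentile of the array. Circles, squares and triangles are replicates 1, 2 and 3 and lines the group means. In each of the 16 panels all null arrays lie below all wild type arrays, by the widest margin in Mrpl20 (4.16 on the lowest wild type array, 3.07 on the highest null array).

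Among small subunit genes the lowest p belonged to Mrps11, the counterpart of bacterial S11 on the platform of the subunit. It read 1.398, 1.33 and 0.97 on the wild type arrays and -0.06, 0.02 and 0.08 on the null arrays. The difference was -1.22 ± 0.16, or 42.9% of wild type (adjusted p = 0.00337). Mrps7, the counterpart of the protein that starts assembly of the subunit head, read 4.07, 4.01 and 3.67 on the wild type arrays and 2.82, 2.88 and 2.73 on the null arrays, and its second probe gave -0.98 ± 0.21 against -1.11 ± 0.15 (adjusted p = 0.00414). Both probes of Mrps7 passed the test on their own. Mrps12, the counterpart of S12 of the decoding centre, where bacterial mutations alter accuracy, read 3.74, 3.74 and 3.45 on the wild type arrays and 2.61, 2.79 and 2.76 on the null arrays, a difference of -0.93 ± 0.14 (adjusted p = 0.00594). For Mrps11, Mrps7 and Mrps12 the call stood in every fit run.

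Mrps6, the counterpart of S6 of the platform, read 3.01, 3.08 and 2.53 on the wild type arrays and 1.83, 1.85 and 1.999 on the null arrays, a difference of -0.98 ± 0.18 (adjusted p = 0.0106). Mrps18c, 1 of 3 paralogs related to bacterial S18, read 3.09, 2.67 and 2.11 on the wild type arrays and 1.47, 1.75 and 1.24 on the null arrays, a difference of -1.14 ± 0.27 (adjusted p = 0.0236). It had the widest wild type spread of the genes named in this subunit. Mrps23, which has no bacterial counterpart, read 3.51, 3.33 and 3.11 on the wild type arrays and 2.42, 2.59 and 2.45 on the null arrays, a difference of -0.83 ± 0.15 (adjusted p = 0.0101). Mrps24, the counterpart of S3 at the mRNA entry, read 2.01, 1.66 and 1.77 on the wild type arrays and 0.96, 1.09 and 1.05 on the null arrays, a difference of -0.78 ± 0.14 (adjusted p = 0.0106). Its groups did not overlap. Mrps26 read 4.26, 4.28 and 3.79 on the wild type arrays and 3.18, 3.49 and 3.30 on the null arrays, a difference of -0.79 ± 0.18 (adjusted p = 0.0224). The call of Mrps6 did not stand on leaving out null array 1 (adjusted p = 0.0532). The call of Mrps18c did not stand on leaving out wild type array 1 or 2, or null array 1 or 3 (adjusted p, in that order, 0.0562, 0.0624, 0.0849 and 0.0901). The call of Mrps23 did not stand on leaving out null array 1 (adjusted p = 0.0545). The call of Mrps24 did not stand on leaving out null array 1 (adjusted p = 0.0573). The call of Mrps26 did not stand on leaving out wild type array 1 or 2, or null array 1 or 3 (adjusted p, in that order, 0.0700, 0.0729, 0.0967 and 0.0778). Mrps26 (0.0518) and Mrps18c (0.0545) were not called without the filter on dim probes. Mrps23 (0.0940) was not called on the dimmest kept probe.

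The paralogs of S18 were all lower in their group means. Beside Mrps18c, Mrps18a read 2.61, 2.53 and 2.46 on the wild type arrays and 1.83, 2.06 and 2.12 on the null arrays, a difference of -0.53 ± 0.14 (adjusted p = 0.0325). Its call was lost with the slide as a block (0.0550) and without each array except wild type replicate 3 (0.0935 and 0.0947 for wild type replicates 1 and 2, 0.137, 0.0851 and 0.0638 for null replicates 1, 2 and 3). It was also not called after quantile normalization (0.0620) or without the filter on dim probes (0.0688). Mrps18b read 3.97, 3.89 and 3.51 on the wild type arrays and 3.36, 3.39 and 3.22 on the null arrays, a difference of -0.46 ± 0.16 that did not pass (adjusted p = 0.0831), with -0.52 on its second probe. Differences between the paralogs were not tested.

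Neighbouring proteins in the bacterial or mammalian ribosome were compared by groups chosen after the values were seen, as a description. On the small subunit platform, 3 of 5 fell: Mrps11, Mrps18c and Mrps6, while Mrps21 (-0.47) and Mrps15 (-0.15) did not pass. Of 5 proteins of the small subunit head, Mrps7 and Mrps24 fell, and Mrps14 (-0.57), Mrps9 (0.14) and Mrps10 (0.18) did not pass. Of 3 stalk proteins, Mrpl11 (-0.74 ± 0.20) and Mrpl12 fell and Mrpl10 (-0.21) did not pass. Of 6 proteins of the central protuberance, the knob of the large subunit that faces the small subunit head, Mrpl58, Mrpl46, Mrpl18 (-0.83 ± 0.19) and Mrpl40 (-0.66 ± 0.19) fell, and Mrpl38 (-0.52) and Mrpl48 (-0.23) did not pass. The exit tunnel, through which the new chain leaves, gave 1 of 6, namely Mrpl22 (-0.68 ± 0.16). The other 5 had differences from -0.42 (Mrpl47) to 0.38 (Mrpl23). These 6 are not every tunnel protein: Mrpl4 (-0.71 ± 0.18, adjusted p = 0.0298) also lies there, was called lower and was left out. The tunnel count and median hold for these 6 alone. Nor do the head and protuberance groups hold every protein of those parts. Each group count and median holds only for the proteins named. The medians were -0.98 for the platform, -0.57 for the head, -0.71 for the stalk, -0.74 for the protuberance and -0.16 for the tunnel, beside -0.49 over all members. Of all members 35.1% were called lower, and of all genes 11.2%, and the differences between these groups were not tested. The call of Mrpl11 did not stand on leaving out wild type array 1 or 2, or null array 1, 2 or 3 (adjusted p, in that order, 0.0935, 0.0988, 0.131, 0.0766 and 0.116). The call of Mrpl18 did not stand on leaving out wild type array 1 or 2, or null array 1 or 3 (adjusted p, in that order, 0.0626, 0.0635, 0.0812 and 0.0833). The call of Mrpl22 did not stand on leaving out wild type array 1 or 2, or null array 1, 2 or 3 (adjusted p, in that order, 0.0753, 0.0779, 0.0983, 0.0576 and 0.0908). The call of Mrpl40 did not stand on leaving out wild type array 1 or 2, or null array 1, 2 or 3 (adjusted p, in that order, 0.133, 0.137, 0.153, 0.0991 and 0.144). Mrpl11 (0.0783), Mrpl18 (0.0527), Mrpl22 (0.0575) and Mrpl40 (0.0978) were not called without the filter on dim probes. Mrpl40 (0.0620) was not called after quantile normalization. Mrpl40 (0.0859) was not called on the dimmest kept probe. Mrpl40 (0.0510) was not called after median centring. Mrpl40 (0.0596) was not called as the mean of its probes. Over all members, 6 to 14 of the 27 calls were kept without wild type replicate 1 or 2 or any 1 null array, and these group counts share that limit.

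Of the 50 members not called, 43 had a difference below 0, and their median was -0.32. The 3 lowest were Mrps25 (-0.76 ± 0.24, adjusted p = 0.0567), Mrpl33 (-0.75 ± 0.24, adjusted p = 0.0610) and Mrpl27 (-0.72 ± 0.22, adjusted p = 0.0541). In each of them all null arrays lay below all wild type arrays. At an adjusted p under 0.10, 39 members were lower, beside 16.4% of all genes. Mrps36, now assigned to the 2-oxoglutarate dehydrogenase complex, read 2.96, 2.87 and 2.33 on the wild type arrays and 2.16, 2.41 and 2.14 on the null arrays, a difference of -0.49 ± 0.20 (adjusted p = 0.123), and its groups overlapped.

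The 3 highest differences belonged to Mrpl23, Mrps10 and Mrps9, of which none passed. Mrpl23, of the exit tunnel, read 4.88, 4.63 and 4.51 on the wild type arrays and 4.997, 5.27 and 4.90 on the null arrays, a difference of 0.38 ± 0.17 (adjusted p = 0.141). It was the only member whose null arrays all lay above the wild type arrays, and it was called higher after quantile normalization (0.55) and with normexp (0.57). Mrps10 gave 0.18 ± 0.17 and Mrps9 0.14 ± 0.13, both with overlapping groups.

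Of 21 members with 2 kept probes, both were below 0 in 20. The largest gap between probes of 1 gene was 0.79, in Mrpl15, where the brighter probe gave -0.26 and the other -1.06 ± 0.20. The median gap was 0.12. Of the second probes, 8 passed as single probes in limma, and the share of all kept probes that passed is not given. Those of Mrpl15 (adjusted p = 0.0118), Mrpl43 (0.0220), Mrpl49 (0.0283) and Mrpl50 (0.0369) passed in genes not called. Those of Mrpl40, Mrpl41 and Mrps23 did not pass in called genes. On the dimmest kept probe 27 members were lower, of which 23 were among the 27 reported, beside 9.9% of all genes.

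Mitoribosomal proteins under other names were read beside these. Of 5, Ptcd3, a pentatricopeptide protein of the small subunit (-0.53 ± 0.13), and Gadd45gip1, known as Crif1 of the large subunit (-0.52 ± 0.14), fell. That is 40% of a short list, against 11.2% of all genes lower. Aurkaip1 (-0.44), Chchd1 (-0.22) and Dap3 (0.02), all of the small subunit, did not pass. The call of Ptcd3 did not stand on leaving out wild type array 1 or 2, or null array 1, 2 or 3 (adjusted p, in that order, 0.0847, 0.0898, 0.115, 0.0809 and 0.0833). The call of Gadd45gip1 did not stand on leaving out wild type array 1 or 2, or null array 1, 2 or 3 (adjusted p, in that order, 0.101, 0.110, 0.125, 0.0844 and 0.105). Ptcd3 (0.0607) and Gadd45gip1 (0.0716) were not called without the filter on dim probes. Ptcd3 (0.0588) was not called after quantile normalization. Gadd45gip1 (0.801) was not called on the dimmest kept probe. Gadd45gip1 (0.769) was not called in the deposited value table. Gadd45gip1 (0.270) was not called as the mean of its probes. A second probe of Gadd45gip1 gave -0.18 ± 0.44.

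Cytosolic ribosomal proteins build the ribosome outside mitochondria. Of 73 such genes 1 rose, Rpl3 (0.41 ± 0.12, adjusted p = 0.0472), and 0 fell in limma, with 2 lower and 1 higher at an unadjusted p under 0.05 and 2 lower with the slide as a block. Their median was 0.04. It fell below 0 in the deposited value table (-0.12), with array weights (-0.02) and on the dimmest kept probes (-0.01). It also did so without wild type replicate 3 (-0.09) and without null replicate 2 (-0.08). Centring on these genes (-0.03) sets their median near 0 by construction. The call of Rpl3 was lost with the slide as a block (0.0724) and without each array in turn (0.0532 to 0.154). It was also lost after quantile normalization (0.0903), median centring (0.0760) and centring on the cytosolic genes (0.102), with normexp (0.0517), without the filter on dim probes (0.0926) and on the dimmest kept probe (0.0633), which makes 13 of 17 alternatives. Many of these genes have processed pseudogenes and close copies, so a probe may read more than 1 of them.

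Counted in either direction, factors that serve the mitochondrial ribosome were called about as often as genes at large. Of 15 translation factors 26.7% were called and of 20 assembly genes 20.0%, against 23.5% of all genes. Called lower were 20% and 15% of these lists, against 11.2% of all genes. Called higher were 6.67% and 5%, against 12.3%. Of the translation factors 3 fell: Tsfm, the exchange factor of elongation (-0.85 ± 0.17), Gfm1, the translocase (-0.71 ± 0.14), and Slirp, which with Lrpprc keeps mitochondrial mRNA stable (-0.69 ± 0.18). The median of the list was -0.14. Oxa1l, which inserts new chains into the inner membrane, was called higher on its brightest probe (0.49 ± 0.14, adjusted p = 0.0422) and lower on its other probe (-0.53 ± 0.14, adjusted p = 0.0368 among single probes), so it has no settled direction. Of the genes for ribosome assembly and RNA modification, 3 fell and 1 rose, with a median of -0.20. Fastkd2, an RNA-binding protein of large subunit assembly (-0.91 ± 0.21), the GTPase gene Mtg2 (-0.54 ± 0.13) and Noa1 (-0.48 ± 0.14) fell, and the GTPase gene Mtg1 rose (0.61 ± 0.17). Fastkd2 was dim, at -5.21, -5.77 and -5.14 on the wild type arrays and -6.50, -6.11 and -6.23 on the null arrays. Its difference was -0.15 with normexp. The call of Oxa1l did not stand on leaving out wild type array 1, 2 or 3, or null array 1, 2 or 3 (adjusted p, in that order, 0.0802, 0.1004, 0.0544, 0.109, 0.143 and 0.0948). The call of Tsfm did not stand on leaving out null array 1 or 2 (adjusted p, in that order, 0.0673 and 0.0528). The call of Gfm1 did not stand on leaving out wild type array 2, or null array 1, 2 or 3 (adjusted p, in that order, 0.0554, 0.0565, 0.0524 and 0.0561). The call of Slirp did not stand on leaving out wild type array 1 or 2, or null array 1, 2 or 3 (adjusted p, in that order, 0.0904, 0.0747, 0.113, 0.0580 and 0.112). The call of Fastkd2 did not stand on leaving out wild type array 1, or null array 1, 2 or 3 (adjusted p, in that order, 0.0691, 0.0927, 0.0501 and 0.0706). The call of Mtg2 did not stand on leaving out wild type array 1 or 2, or null array 1, 2 or 3 (adjusted p, in that order, 0.0699, 0.0754, 0.112, 0.0624 and 0.0678). The call of Noa1 did not stand on leaving out wild type array 1 or 2, or null array 1, 2 or 3 (adjusted p, in that order, 0.130, 0.158, 0.146, 0.126 and 0.134). The call of Mtg1 did not stand on leaving out wild type array 2 or 3, or null array 1, 2 or 3 (adjusted p, in that order, 0.124, 0.0562, 0.111, 0.123 and 0.107). Slirp (0.0720), Oxa1l (0.0851), Fastkd2 (0.0514), Mtg2 (0.0532), Mtg1 (0.0822) and Noa1 (0.0956) were not called without the filter on dim probes. Fastkd2 (0.137) was not called after quantile normalization. Noa1 (0.0608) was not called on the dimmest kept probe. Fastkd2 (0.125) and Noa1 (0.0703) were not called in the deposited value table. Oxa1l (0.0640) and Mtg1 (0.0575) were not called after median centring. Fastkd2 (0.334) and Mtg2 (0.0602) were not called with normexp. Oxa1l (0.0538), Mtg1 (0.0563) and Noa1 (0.0567) were not called with the slide as a block.

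Of 12 genes for mitochondrial DNA and its transcription, Tfb2m, the initiation factor, fell (-0.92 ± 0.17), and Top1mt, a topoisomerase (1.06 ± 0.17), and Polg2, a polymerase subunit (0.69 ± 0.19), rose. That is 25% called, against 23.5% of all genes, and the list median was -0.04. Tfam, which packages mitochondrial DNA, did not pass (-0.03). Of 15 import genes 5 fell (33.3%, against 11.2% of all genes), with a median of -0.46: Tomm22, a receptor of the outer membrane (-0.77 ± 0.13), Timm9 (-0.66 ± 0.13) and Timm10 (-0.92 ± 0.22), chaperones of the space between the membranes, Timm23, the inner membrane channel (-0.74 ± 0.17), and Grpel1 (-0.48 ± 0.12). With the slide as a block 4 fell. Of 10 proteases and chaperones, Hspe1 (-0.84 ± 0.17) and Hspd1 (-0.72 ± 0.15), which form the mitochondrial chaperonin, fell, and the list median was -0.03. That is 20% called, all lower, against 23.5% of all genes called and 11.2% lower. With the slide as a block, Trap1 (0.64, adjusted p = 0.0314) and Oma1 (0.72, adjusted p = 0.0280) were called higher in that list, which they were not without it (0.0692 and 0.0864). The call of Tfb2m did not stand on leaving out null array 1 (adjusted p = 0.0545). The call of Polg2 did not stand on leaving out wild type array 2 or 3, or null array 1, 2 or 3 (adjusted p, in that order, 0.103, 0.0540, 0.111, 0.118 and 0.0641). The call of Timm9 did not stand on leaving out null array 1 or 2 (adjusted p, in that order, 0.0737 and 0.0589). The call of Timm10 did not stand on leaving out wild type array 1 or 2, or null array 1, 2 or 3 (adjusted p, in that order, 0.0687, 0.0741, 0.0916, 0.0601 and 0.0925). The call of Timm23 did not stand on leaving out wild type array 1 or 2, or null array 1, 2 or 3 (adjusted p, in that order, 0.0687, 0.0741, 0.0938, 0.0623 and 0.0757). The call of Grpel1 did not stand on leaving out wild type array 1 or 2, or null array 1, 2 or 3 (adjusted p, in that order, 0.0941, 0.111, 0.142, 0.0962 and 0.0788). The call of Hspe1 did not stand on leaving out null array 1 or 2 (adjusted p, in that order, 0.0664 and 0.0580). The call of Hspd1 did not stand on leaving out wild type array 1, or null array 2 (adjusted p, in that order, 0.0521 and 0.0540). Polg2 (0.0785), Timm23 (0.0515), Timm10 (0.0572) and Grpel1 (0.0693) were not called without the filter on dim probes. Grpel1 (0.102) was not called after quantile normalization. Timm23 (0.0554), Hspe1 (0.117) and Grpel1 (0.116) were not called on the dimmest kept probe. Polg2 (0.0505), Timm23 (0.0586) and Grpel1 (0.232) were not called in the deposited value table. Grpel1 (0.0568) was not called with the slide as a block.

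**Figure D4:**
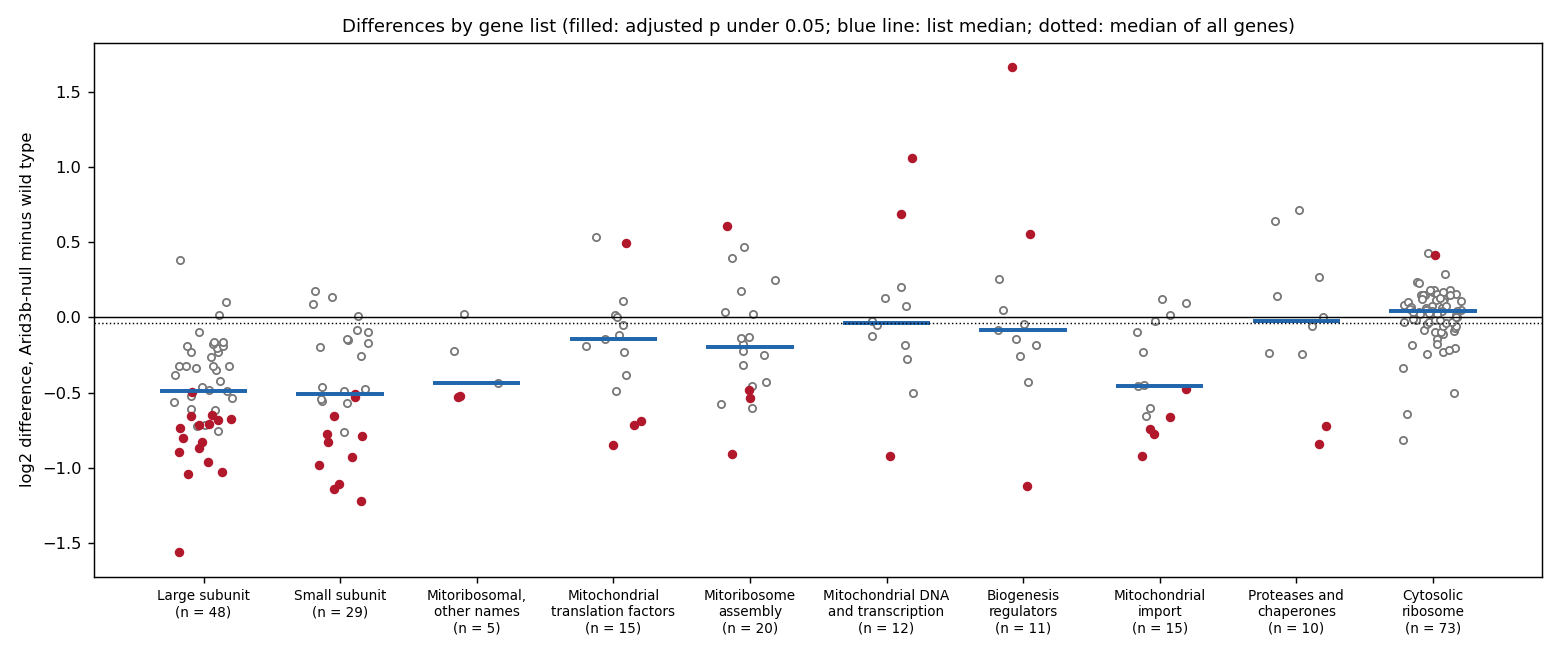
Log2 differences, null minus wild type, of the genes in 10 lists. Each point is a gene, filled where the adjusted p was under 0.05, with the list median as a blue line and the median of all genes as a dotted line. The medians of both mitoribosomal subunits (-0.49 and -0.51), of 5 mitoribosomal proteins with other names (-0.44) and of import (-0.46) lie lowest, and that of the cytosolic ribosome is 0.04.

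Regulators of mitochondrial gene expression were read last. Nrf1, nuclear respiratory factor 1, a transcription factor that binds promoters of many nuclear genes for mitochondrial proteins, read 1.33, 1.25 and 1.46 on the wild type arrays and 0.28, 0.14 and 0.26 on the null arrays on its brightest probe. The groups lay apart, with a difference of -1.12 ± 0.13 (adjusted p = 0.00262). The 2 other probes gave -0.69 ± 0.37 and 0.48 ± 0.24, neither called as single probes, and the mean of its probes gave -0.44. The coactivator genes Ppargc1b (1.66 ± 0.24, 0.57 with normexp) and Ppargc1a (0.56 ± 0.14) rose, so that 3 of 11 regulators (27.3%) were called, against 23.5% of all genes. Ppargc1b was dim, at -5.73, -4.87 and -5.51 on the wild type arrays and -3.91, -3.57 and -3.65 on the null arrays. The call of Ppargc1a did not stand on leaving out wild type array 1 or 2, or null array 1 or 2 (adjusted p, in that order, 0.0791, 0.0924, 0.131 and 0.116). Ppargc1a (0.0694) was not called without the filter on dim probes. Nrf1 (0.211) was not called as the mean of its probes. The subunits of the GA-binding protein, an ETS factor, did not pass (-0.18 for Gabpa and -0.25 for Gabpb1), nor did Myc (-0.43), Esrra (-0.08) or Yy1 (0.05).

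Promoters of the members were searched for core motifs of 4 such factors or factor classes and of the stress response. RefSeq sequences of GRCm38.p6 covered 68 of the 77 genes with 74 promoters of 300 bases, from 250 before to 50 after the start, against 21263 promoters of protein-coding genes. Both strands were read. The NRF1 core CGCATGCG, its own reverse complement, was in 9.46% of member promoters and 2.52% of all. The stretches that hold it, cut to bases before the start, are shown to give the sequence around the site in 5 of the 7 genes, with the motif in capitals.
Mrpl22 (chr11:58171602-58171663, plus strand): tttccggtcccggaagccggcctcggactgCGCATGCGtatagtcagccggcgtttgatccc
Mrpl32 (chr13:14613086-14613153, minus strand): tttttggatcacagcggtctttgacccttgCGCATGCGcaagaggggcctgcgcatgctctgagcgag
Mrpl39 (chr16:84735331-84735398, minus strand): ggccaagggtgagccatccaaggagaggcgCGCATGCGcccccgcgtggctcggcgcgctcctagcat
Mrpl10 (chr11:97041417-97041484, plus strand): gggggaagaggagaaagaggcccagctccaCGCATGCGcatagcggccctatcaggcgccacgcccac
Mrps18b (chr17:35916627-35916690, minus strand): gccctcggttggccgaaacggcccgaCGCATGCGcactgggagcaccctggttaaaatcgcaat

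Of the 7 genes with the NRF1 core only Mrpl22 fell, and the others were Mrpl9, Mrpl10, Mrpl17, Mrpl32, Mrpl39 and Mrps18b. Their median difference was -0.38, against -0.53 with 22 of 61 lower among members whose promoter lacked these letters. Mrpl32 held the motif at 2 places. The ETS core CCGGAAGT was in 16.2% of member promoters and 5.15% of all. Of 12 genes with it 4 fell (median -0.68), against 19 of 56 without it (median -0.46). The 4 that fell are shown with the motif in capitals, as it reads on the strand of the gene.
Mrps18c (chr5:100798572-100798639, plus strand): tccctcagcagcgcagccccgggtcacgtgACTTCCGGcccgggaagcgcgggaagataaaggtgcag
Mrps26 (chr2:130563712-130563756, plus strand): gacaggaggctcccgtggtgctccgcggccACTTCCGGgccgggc
Mrps22 (chr9:98601680-98601720, minus strand): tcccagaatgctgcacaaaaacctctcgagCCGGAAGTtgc
Mrpl18 (chr17:12916294-12916341, minus strand): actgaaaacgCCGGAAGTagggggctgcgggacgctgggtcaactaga

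The call of Mrps22 did not stand on leaving out wild type array 1 or 2, or null array 1, 2 or 3 (adjusted p, in that order, 0.0877, 0.0922, 0.124, 0.0787 and 0.102). Mrps22 (0.0708) was not called without the filter on dim probes.

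The YY1 core AAGATGGCG was in 10.8% of member promoters and 1.83% of all, and 4 of the 8 genes with it fell, against 19 of 60 without it (medians -0.43 and -0.49). The E-box CACGTG was in 9.46% of member promoters and 7.84% of all. These 7 member promoters belong to 5 of 68 genes, because overlapping promoters of Mrpl2 hold the same site and were counted separately. Of the 5 genes with it 3 fell, against 20 of 63 without it (medians -0.80 and -0.49). The composite TGATGCAA, read by the stress factors Atf4 and Ddit3 with C/EBP partners, was in 0 of 74 member promoters and 0.865% of all. A match describes letters in this window and says nothing about binding.

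Over the arrays, 67.9% to 70.3% of spots other than controls exceeded background, and the 75th percentile of signal was 626 to 977, highest on null array 3. On each slide the wild type array had position 1 and the null array position 2, which leaves genotype and position confounded: they cannot be told apart. All 10 head and brain markers were measured (3 lower, 1 higher), which is 40% called, beside 23.5% of all genes. Of 10 posterior trunk markers, 5 were not above background on any array. The summed signal of the 4 measured trunk markers was 0.155 to 0.214 times the 75th percentile in wild type and 0.480 to 0.559 in null heads. The sum includes Hoxb8, which passed the filter only through the null arrays, and Hoxa9, which passed only through the wild type arrays. It therefore cannot serve to compare the groups. The largest term of this sum on every array was Tbx6, of presomitic mesoderm, at -3.26, -3.33 and -3.36 on the wild type arrays and -1.44, -1.21 and -1.62 on the null arrays (1.90 ± 0.15, adjusted p = 9.07e-04). On its dimmest kept probe Tbx6 gave 0.08 and was not called. Hoxb8 passed the filter only through the null arrays, since 2 of 3 wild type arrays had it well above background, and no count rests on it. Hoxa9 (-0.27) and Hoxa7 (-0.16) did not pass. The summed signals of 10 erythroid markers (638 to 864 against 492 to 1011), 10 endothelial markers (13.9 to 18.5 against 14.3 to 15.4) and 8 heart muscle markers (1.33 to 3.61 against 1.88 to 2.11) overlapped between wild type and null. Of these lists, 1 gene of 10 erythroid markers, Klf1, was called lower (10%), beside 11.2% of all genes. The call of Klf1 did not stand on leaving out null array 1 or 3 (adjusted p, in that order, 0.0833 and 0.0833). Klf1 (0.0508) was not called without the filter on dim probes. The part of these markers in the result was not tested.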

How the data were processed

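RNA of 6 pooled head samples was read on one-colour Agilent arrays. The authors obtained spot intensity in Agilent Feature Extraction (10.7.3.1, a version given in the file headers), with background corrected and no scaling between arrays. The deposited value table is on a log2 scale that tracks the scanner signals, with its scaling unknown. Probes were named through RefSeq accessions: 26424 of 39429 probes had 1 symbol and 13005 none. Processed signals were taken as log2 minus the 75th percentile of each array, without outlier spots. A probe was kept if every array of either genotype had it well above background and 5 or more arrays gave a value. The brightest such probe stood for its gene. Limma 3.58.1 in R 4.3.3 tested 14906 genes, and the steps were tested on simulated data.

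Members and lists were chosen with earlier results of these data known. Named members are the 8 with the smallest p in each subunit, the 3 highest and lowest not called, the S18 paralogs and Mrps36; from other lists, up to 4 with the smallest p. Mrpl4, Mrpl11, Mrpl13, Mrpl15, Mrpl18, Mrpl22, Mrpl40, Mrpl43, Mrpl44, Mrpl49, Mrpl50, Mrps22 and those named by a motif were chosen after their values were seen. The same holds for the other members of the structural groups and the remaining genes named from lists. Replicate numbers share a slide and a scan, per the file headers. Deviations of same-numbered samples correlated at -0.20, 0.15 and 0.42, so the slide as a block is an alternative. The number of arrays limits precision.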

Additional observations from a re-analysis of the deposited data

How the results depend on the processing

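The count of 27 members lower stood beside 11.2% of all genes. Array weights gave 54, beside 23.2% of all genes lower. Without the filter on dim probes it was 13, beside 5.2%. At an adjusted p under 0.01 it was 6, beside 3.5%. Centring on the cytosolic ribosomal proteins, an alternative chosen after seeing the data, gave 43, beside 13.7%. Leaving out 1 array gave 6 to 50, beside 4.1% to 18% of all genes. With the replicate block (slide) it was 27 (11.8%), of which 24 were among those reported. With quantile normalization and with normexp 1 member was higher, Mrpl23, beside 13.3% and 12.7% of all genes. The subunit medians stayed below 0 in all alternatives run, from -0.66 to -0.35 (large) and from -0.64 to -0.33 (small). Chchd1 turned to 0.023, and ranged from -0.58 to 0.023, when 1 array was left out. Oxa1l turned to -0.56 in the deposited value table, -0.017 as the mean of its probes and -0.53 on its dimmest probe, and Nrf1 to 0.48 on its dimmest probe. The cause was not tested. The deposited table held 39 of the 77 members, of which 18 were lower, beside 10.6% of all genes.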

Other observations

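The median of the members minus the median of the cytosolic ribosomal protein genes, as deviations from the wild type mean, was -0.04, 0.04 and -0.02 on wild type arrays 1, 2 and 3 and -0.57, -0.65 and -0.41 on null arrays 1, 2 and 3. The median SD over members was 0.28 among wild type arrays and 0.14 among null arrays, beside 0.25 and 0.18 over all genes tested.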
